A study of Rattus norvegicus with 8 samples.

Results

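The response of newly made RNA to tetrodotoxin (TTX) was compared between rat neuron cultures with and without a history of the drug, gene by gene. The measure was the interaction, the log2 difference TT minus TH less the log2 difference HT minus HH. It was taken for every gene that passed the expression filter, 11372 of the 16871 genes in the table (67.4%). Genes were then sorted by the size and direction of both responses into 253 lost with history, 116 gained, 108 reversed and 52 kept, with 283 partly kept and 10560 (92.9%) that had no response by the rule used.

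Neurons of hippocampus and cortex were grown together from newborn Sprague Dawley rats of postnatal day 1 to 2; the samples are named for hippocampus alone although the growth protocol names both tissues. Groups carry 2 letters, for the first and the second treatment, with H for water as vehicle and T for 1 µM TTX. HH cultures had vehicle both times, HT cultures vehicle and then TTX, TH cultures TTX and then vehicle, and TT cultures TTX both times. The first treatment lasted 24 h from day 14 in vitro. All groups shared washes and 48 h in a mixture of saved and fresh medium, then the second treatment of 4 h on day 17, with 2 mM bromouridine (BrU) present for the last 30 min. RNA that had taken up BrU was captured and sequenced (BrU-seq), with 2 libraries per group. The labels do not say how many pups were pooled or whether replicates were separate cultures, so p-values here speak of the spread among these 8 libraries alone. Replicates of HH, HT and TH differed in the Y-linked RNA given below, and so were not repeats of the same RNA sample. For TT, with 3 and 0 counts of that RNA, the spread may be technical.

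TTX blocks voltage-gated sodium channels and so stops action potentials. Silent neurons transcribe less of the genes that calcium entry switches on, among them Fos, Npas4 and Arc, and over longer silence they adjust the strength of their synapses, in part through AMPA receptors. Since BrU labels RNA only while it is being made, the counts follow recent transcription more closely than the standing pool of messenger RNA.

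Total counts ran from 3489176 to 4959887 per library. The replicates differed by over 2-fold in 546 genes in HH, 281 in HT, 180 in TH and 155 in TT. HH replicate 1 held the highest value of the 8 libraries in 21.6% of genes and the lowest in 22.3%. Transcripts of Eif2s3y, a translation factor gene on the Y chromosome in RefSeq, split the libraries in another way. They had 215, 191 and 249 counts in replicate 2 of HH, HT and TH, but 0 in TT replicate 2 and 0 to 3 in the 4 libraries numbered 1. Its X-linked counterpart Eif2s3x stood at 47.2 to 54.7 CPM (counts relative to library size) in the first 3 of these libraries and at 74.2 to 109 CPM in the other 5. TT replicate 2 thus differs from the other libraries numbered 2 in its Y-linked RNA, and the part of this in the results was tested only by adding it to the fit as a covariate.

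The first question was whether any gene responded to TTX differently after an earlier exposure. No gene passed an adjusted p of 0.05 for the interaction, 0 of 11372 (0%; edgeR quasi-likelihood test, Benjamini-Hochberg), and the smallest adjusted p was 0.999883. An unadjusted p under 0.05 was reached by 186 genes (1.64%), against the 5% that is nominal, 83 with a positive (0.73%) and 103 with a negative interaction (0.906%). DESeq2 called 0 genes, with 35 at an unadjusted p under 0.05, and limma-voom 0, with 187. The response itself gave 738 genes at an unadjusted p under 0.05 without history (6.49%) and 300 with history (2.64%), and none passed adjustment in either. The median size of the interaction was 0.17 on the log2 scale, below its median standard error (SE) of 0.28, and 200 genes exceeded 2-fold. With the Y-linked gene as a covariate the fit again called 0 genes, with 179 at an unadjusted p under 0.05.

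**Figure D1:**
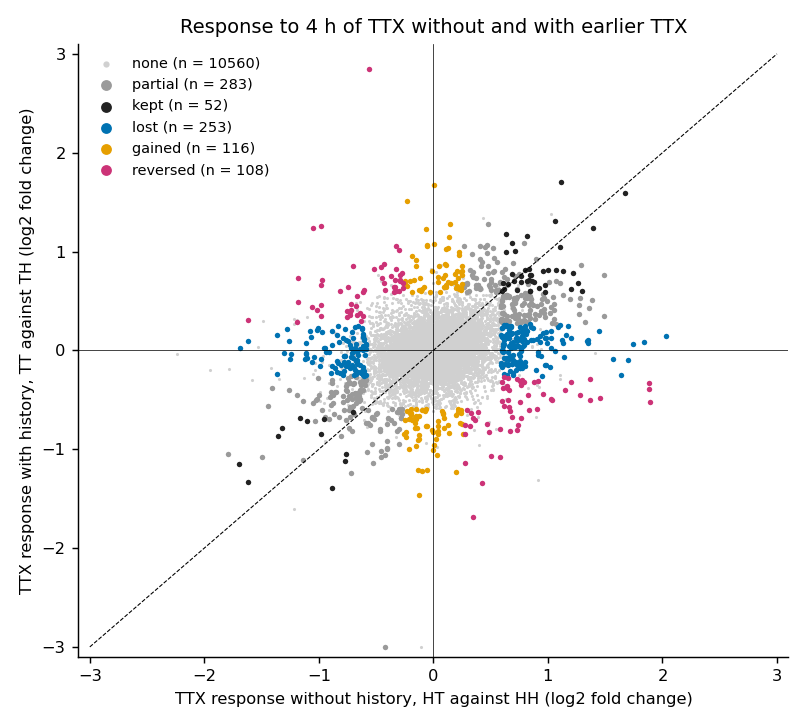
Each point is 1 of the 11372 genes, with the log2 fold change of HT against HH on the horizontal axis and of TT against TH on the vertical axis (edgeR, 2 libraries per group); values beyond 3 are drawn at 3. Colours mark the classes, and the dashed line marks equal responses, on which the interaction is 0.

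Agreement between libraries was the second question, because the libraries numbered 1 and those numbered 2 each give an interaction of their own with no library in common. Across genes these had a Pearson correlation of -0.03 and a Spearman correlation of -0.05, and 47.5% of genes had the same sign in both. In the 8384 genes with a mean of at least 50 counts Pearson's value was -0.07. For the 2 responses taken alone it was 0.22 without history (59.4% of genes of the same sign) and 0.02 with history (49.2%). Genes are not independent replicates and TT replicate 2 lacks the Y-linked RNA of its partners, so these values are a description. Genes sorted in the replicate 1 libraries alone were also read in the replicate 2 libraries. The 329 genes with a rise lost in replicate 1 had a median interaction of -0.80 there and -0.09 in replicate 2, and the 183 with a rise gained had 0.77 and then -0.13. Read the other way, the 217 falls lost in replicate 2 went from 0.76 there to -0.11 in replicate 1, where 41.5% kept their sign against 49.6% of all genes. The rises lost in replicate 2 kept it in 52.6%, against 50.4% of all genes. Of genes lost in replicate 1, 57.4% of rises and 57.5% of falls kept their sign in replicate 2, against 49.6% and 50.4% of all genes. Of genes gained in replicate 1, 38.8% of rises and 41.0% of falls kept their sign in replicate 2. In the other order these were 34.9% and 43.2%, and the medians read of gained genes had the opposite sign in both directions and orders. Reversed genes kept their sign in 40.2% to 53.3%. Of all genes, 49.6% to 50.4% had the sign in question. Over all 12 readings, in both orders, the medians read lay between -0.25 and 0.17.

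**Figure D2:**
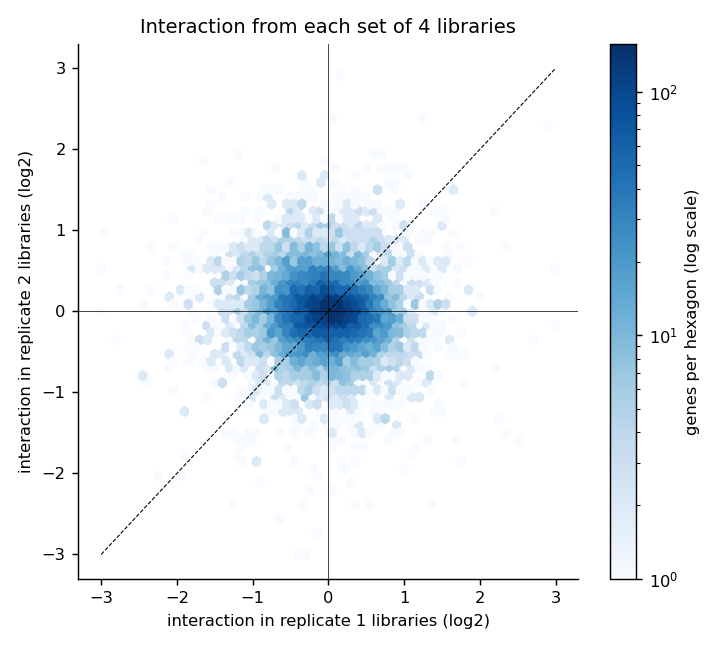
The interaction of each gene (log2 CPM) from the 4 libraries numbered 1 on the horizontal axis and the 4 numbered 2 on the vertical axis; shading gives genes per hexagon on a log scale and values beyond 3 are drawn at 3. The cloud is round, with no tilt along the dashed line of equal values (Pearson -0.03).

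A response was counted where the fold was at least 1.5 in either direction and the libraries of the 2 groups did not overlap. Without history 547 genes met this (4.81%) and with history 329 (2.89%); 35.3% and 30.0% of all genes did not overlap, whatever their fold. A lost response had a fold under 1.2 with history, a gained response a fold under 1.2 without it, and a reversed response a fold of at least 1.2 the opposite way. A kept gene had a response in both histories in the same direction. A partial gene had a response in either history and at least 1.2-fold the same way in the other, short of a response there. The words rise and fall for these classes stand for fitted folds and not for passed tests, and because the classes use both responses their interactions are given as a description. Close to the limits, Pnldc1 was inside the 1.5-fold limit for a lost response at 1.501 and Lrrc55 outside at 1.498. At the 1.2-fold limit Gad2 was inside at 1.1997 and Tsc22d3 outside at 1.2003. For gained responses Kcnrg was inside at 1.502 and Ccdc19 outside at 1.4996.

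Lost responses numbered 253 genes (2.22%), 148 rises (1.3%) and 105 falls (0.923%). The median response of the lost rises was 0.74 without history and 0.07 with it, and for the lost falls -0.74 and -0.03. In 145 of the 148 lost rises TH lay above HH. On a scale where HH is 0 and HT is 1, the median lost rise had TH at 0.68 and TT at 0.75. For the lost falls TH was at 0.45 and TT at 0.54. The class was sorted on these same 4 groups and favours genes with extreme HH values, so both the place of TH and TT and the side of HH on which TH lies follow in part from the choice and support nothing. HH replicate 1 was the lowest of the 8 libraries in 90 lost rises (60.8%) and the highest in 50 lost falls (47.6%). For HH replicate 2 these were 44 (29.7%) and 34 (32.4%). Over all genes HH replicate 1 was the lowest in 22.3% and the highest in 21.6%, and HH replicate 2 in 12.3% and 11.8%.

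Cspg4, which encodes the NG2 proteoglycan of oligodendrocyte precursors, had the smallest interaction p of the lost rises named here. Its values were 67.5 and 73.0 CPM in HH, 114 and 120 CPM in HT, 85.9 and 93.9 CPM in TH, and 92.4 and 92.8 CPM in TT. Both HT libraries lay above all others and both HH libraries below all others, while TH and TT lay side by side. The response was 0.73 ± 0.12 without history and 0.04 ± 0.12 with it (log2 fold change ± SE, 2 libraries per group), with an interaction of -0.69 ± 0.17 (edgeR adjusted p = 0.999883). Cenpn, a centromere protein gene, stood at 2.78 and 3.39 CPM in HH and 8.02 and 7.86 CPM in HT, but between 4.45 and 5.38 CPM in the 4 libraries with a history. Slc4a2, an anion exchanger of the plasma membrane, went from 5.55 and 5.74 CPM in HH to 9.05 and 14.0 CPM in HT, with 7.97 to 9.31 CPM in TH and TT. The zinc finger gene Zfp90 had an interaction of -0.88 ± 0.30, with 13.0 and 18.3 CPM in HH against 26.9 and 23.0 CPM in HT. Homer3, a scaffold gene of the postsynaptic density, was at 1.13 ± 0.39 without history and 0.11 ± 0.33 with it. Its interaction of -1.02 was -0.50 without HT replicate 1, and it was -1.87 in the replicate 1 libraries and 0.05 in the replicate 2 libraries.

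Among the lost falls, Etv1, an ETS transcription factor downstream of the ERK kinases, stood at 123 and 80.1 CPM in HH and 73.5 and 59.0 CPM in HT, then at 69.1 and 70.0 CPM in TH and 71.5 and 81.5 CPM in TT. The HT libraries lay below both HH libraries, and the TT libraries lay just above the TH libraries. Its interaction was 0.75 ± 0.27, and 0.40 without HH replicate 1. Rnf128, a membrane ubiquitin ligase, had 38.2 and 30.5 CPM in HH and 20.2 CPM in both HT libraries, but 21.8 and 32.4 CPM in TH and 24.7 and 33.9 CPM in TT. Txndc17, a thioredoxin-like protein gene, had an interaction of 1.28 ± 0.45, and Lpl, the lipoprotein lipase gene, 1.24 ± 0.50, which was 0.80 without HT replicate 1. Gad2, which makes the inhibitory transmitter GABA, was at 443 and 320 CPM in HH and 257 and 243 CPM in HT, against 298 and 305 CPM in TH and 218 and 284 CPM in TT. In Gad2 the TT libraries still lay below both TH libraries, its place in the class rests on a fold of 1.1997, and its interaction of 0.35 was 0.082 without HH replicate 1. The neuropeptide gene Vip had an interaction of 0.91 ± 0.42, and 0.44 without HH replicate 1.

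Dusp1, Scg2 and Pcsk1 were chosen after their values were seen, as lost falls that neurons are known to transcribe with activity. Dusp1 is a phosphatase that turns off MAP kinases, Scg2 a granin of dense-core vesicles and Pcsk1 a convertase that cuts peptide precursors. Dusp1 stood at 17.9 and 9.91 CPM in HH, 8.80 and 7.58 CPM in HT, 11.3 and 9.71 CPM in TH and 9.72 and 9.56 CPM in TT. Scg2 stood at 35.2 and 25.6 CPM in HH, 18.4 and 16.8 CPM in HT, 35.4 and 14.4 CPM in TH and 24.7 and 20.3 CPM in TT. Pcsk1 stood at 38.6 and 20.6 CPM in HH and 18.4 and 10.9 CPM in HT, and between 7.57 and 13.0 CPM in TH and TT. The TH libraries of Dusp1 lay around the lower HH library, those of Pcsk1 lay below both HH libraries, and those of Scg2 held the whole range of the 8. The interactions were 0.62 ± 0.42 for Dusp1, 0.66 ± 0.53 for Scg2 and 0.83 ± 0.55 for Pcsk1, and without HH replicate 1 they were 0.14, 0.41 and 0.31. Without TH replicate 2 that of Scg2 was 0.12.

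The promoters of the lost falls were searched for the cyclic AMP response element (CRE), TGACGTCA, the site bound by CREB, a factor that calcium entry activates. RefSeq gave a promoter of 300 bases on rat build GRCr8, another build than the rn6 of the counts, for 86 of the 105 lost falls and 9186 of all 11372 tested genes. The CRE letters, read on both strands, were in 5 lost falls (5.81%), in 6 of 123 lost rises (4.88%), and in 3.30% of all tested genes with a promoter. The AP-1 letters, TGANTCA, which share no full match with the CRE, were in 3 lost falls (3.49%) against 4.70% of tested genes. The EGR letters GCGTGGGCG, a serum response element of the CArG kind and a sterol response element were in 0 lost falls and 0 lost rises, and in 1.11%, 0.0435% and 0 of tested genes. In later activity-response genes the CRE letters were in 4 of 27 promoters (14.8%) and the AP-1 letters in 2 (7.41%). Gained falls had CRE letters in 0 and AP-1 letters in 6 of 49 (12.2%). Gained rises had them in 1 (2.22%) and 2 (4.44%) of 45, and kept rises in 0 and 2 of 35 (5.71%). Besides Dusp1 and Scg2 the lost falls with the CRE letters were Ppargc1a, Hdx and Fkbpl, where they begin 181, 47 and 80 bases before the start. The promoters of Dusp1 (chr10:17184603-17184902, + strand) and Scg2 (chr9:88256817-88257116, - strand) are shown as examples chosen after their values were seen. In these the letters begin 124 and 123 bases before the start, a likeness that the other lost falls with the letters do not share. Both promoters are written 5′ to 3′ in the direction of the gene, with the CRE letters in capitals.
Dusp1: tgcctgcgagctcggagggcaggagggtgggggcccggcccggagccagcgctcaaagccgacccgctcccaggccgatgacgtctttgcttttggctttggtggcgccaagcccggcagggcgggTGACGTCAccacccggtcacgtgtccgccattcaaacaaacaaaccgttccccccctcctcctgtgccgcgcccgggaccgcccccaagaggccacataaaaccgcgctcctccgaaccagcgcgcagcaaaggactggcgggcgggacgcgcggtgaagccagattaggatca
Scg2: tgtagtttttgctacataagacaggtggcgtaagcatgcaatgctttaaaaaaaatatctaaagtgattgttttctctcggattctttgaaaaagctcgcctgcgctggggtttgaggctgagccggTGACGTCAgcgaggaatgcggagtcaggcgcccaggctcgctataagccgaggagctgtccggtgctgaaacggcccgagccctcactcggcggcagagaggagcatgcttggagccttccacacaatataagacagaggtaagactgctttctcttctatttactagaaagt
A match is a run of letters and not a measured site, and the counts hold no binding data.

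Gained responses numbered 116 (1.02%), 55 rises (0.484%) and 61 falls (0.536%). Papss2, which makes the sulfate donor for proteoglycans, stood at 46.6 and 34.7 CPM in HH, 37.3 and 37.1 CPM in HT, 40.3 and 30.0 CPM in TH and 56.8 and 49.8 CPM in TT. Both TT libraries lay above the other 6. Its interaction was 0.73 ± 0.26. Cmtm7, a membrane protein gene, had 4.97 and 5.67 CPM in TH and 8.97 and 13.3 CPM in TT, with 7.30 to 9.56 CPM in HH and HT. There the 2 TH libraries were the low ones, and TT overlapped the cultures without history. Mcm4, a subunit of the replicative helicase, was at 0.09 ± 0.23 without history and 0.73 ± 0.22 with it. Of the gained falls, Coro1a, an actin-binding coronin, had 29.0 and 17.6 CPM in TH and 14.9 and 12.3 CPM in TT, with 19.0 to 21.7 CPM in HH and HT. Coro1a has its highest value in TH replicate 1, and its interaction of -0.88 ± 0.35 was -0.50 without that library. Syt12, a synaptotagmin, was at -0.01 ± 0.32 without history and -0.80 ± 0.33 with it, and Prr7, a membrane protein of the postsynaptic density, at 0.09 ± 0.28 and -0.64 ± 0.27. Their interactions of -0.79 and -0.73 were -0.43 without HH replicate 2 for Syt12 and -0.38 without TH replicate 1 for Prr7.

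Reversed responses numbered 108 (0.95%), with 52 that had a fall without history and a rise with it (0.457%) and 56 the other way (0.492%). Tdrd5, a Tudor domain gene known from the germ line, had the smallest p of all interactions. It stood at 3.39 CPM in both HH libraries, 2.33 and 2.25 CPM in HT, 0.276 and 0.607 CPM in TH, and 3.74 and 3.39 CPM in TT. The 2 TH libraries lay far below the other 6, on 1 and 3 counts, against 15 and 17 counts in TT. The ratio of TT to TH was 7.58 with a 95% exact interval of 2.69 to 29.5 that covers counting error only. The interaction was 3.41 ± 0.72 (edgeR adjusted p = 0.999883), and leaving out each library in turn gave 3.05 to 4.10. These same counts put Tdrd5 first among all tested genes. The interval and the range are therefore a description and support nothing. Macc1, at 1.01 to 3.39 CPM, had an interaction of 2.29 ± 0.69.

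Htr2a, the serotonin 2A receptor gene, had the most counts of the reversed genes named here. It stood at 221 and 109 CPM in HH, 119 and 96.0 CPM in HT, 107 and 95.5 CPM in TH, and 140 and 163 CPM in TT. TT lay above TH with no overlap, but HH replicate 2 lay between the HT libraries, so that only the rise with history met the rule. The interaction was 1.202 ± 0.413, 0.60 without HH replicate 1 and 1.63 without HH replicate 2, where it passed adjustment (edgeR adjusted p = 0.0177). Xkrx, a member of the XK family of membrane proteins, was at -0.75 ± 0.27 without history and 0.39 ± 0.27 with it.

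In the opposite direction Unc119b, a carrier of lipid-modified proteins, stood at 10.8 and 11.7 CPM in HH, 18.6 and 19.7 CPM in HT, 21.3 and 20.4 CPM in TH and 17.7 and 15.9 CPM in TT. Each pair of replicates was close, the HH libraries were the lowest, and TH lay above HT. The interaction was -1.07 ± 0.27 (edgeR adjusted p = 0.999883), between -1.15 and -0.99 with each library left out. Slc35c1, the GDP-fucose carrier of the Golgi, had 5.86 and 8.35 CPM in HH, 11.4 and 10.7 CPM in HT, 12.4 and 10.9 CPM in TH, and 7.47 and 8.17 CPM in TT, so that HT and TH were high and HH and TT low. Its interaction was -1.19 ± 0.36. The DNA helicase gene Recql4 was at 1.201 ± 0.405 and then -0.32 ± 0.36, and Ciart, a repressor of the circadian clock, at 0.79 ± 0.36 and then -0.32 ± 0.32. Lost, gained and reversed genes had few counts, with medians of 3.09 to 6.36 CPM over the directions of these classes, against 36.5 CPM for the genes with no response. Some genes of small p had responses too small for a class. Paqr5, a progestin receptor of the membrane, was at -0.44 ± 0.14 without history and 0.39 ± 0.14 with it, with an interaction of 0.82 ± 0.20 (edgeR adjusted p = 0.999883). Fgd1, an exchange factor for Cdc42, was at 0.32 ± 0.13 and -0.28 ± 0.13.

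**Figure D3:**
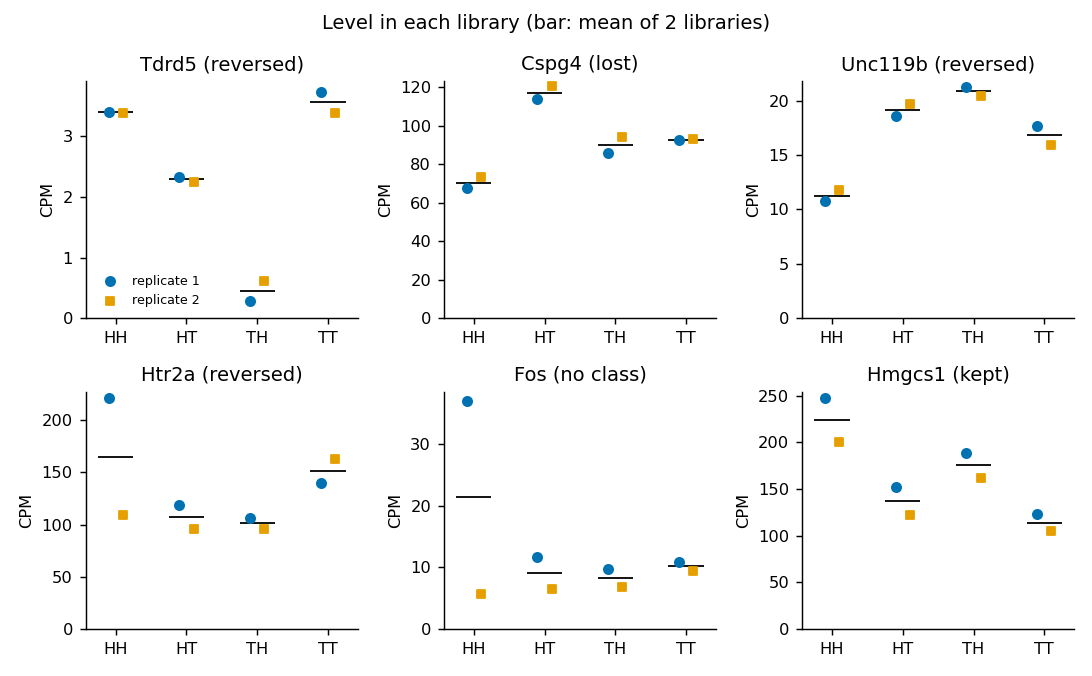
Level of 6 genes (CPM, axes from 0) in each of the 8 libraries; circles are replicate 1, squares replicate 2 and bars the mean of 2 libraries. In Tdrd5 the TH libraries are low, in Cspg4 the HT libraries are high and in Unc119b the HH libraries are low, while Fos has 1 high library, HH replicate 1 at 37.0 CPM, and Hmgcs1 lies lower after TTX in both histories.

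Responses kept with history numbered 52 (0.457%), 40 rises (0.352%) and 12 falls (0.106%). The kept genes on the gene lists, named after their values were seen, included these. Hmgcs1, an enzyme at the start of cholesterol synthesis, was at 247 and 200 CPM in HH against 152 and 123 CPM in HT, and at 189 and 161 CPM in TH against 123 and 105 CPM in TT. Its response was -0.70 ± 0.16 and then -0.62 ± 0.16, and that of Stard4, a cholesterol carrier, -0.77 ± 0.32 and -1.12 ± 0.33. Gpr17, a receptor of maturing oligodendrocyte precursors, was at 1.00 ± 0.33 and 0.81 ± 0.28, and Cldn11, the claudin of myelin, at 1.39 ± 0.63 and 1.24 ± 0.47. Mki67, Cenpf and Kif20a, genes of dividing cells, were at 0.61, 0.84 and 0.77 without history and 0.62, 0.60 and 0.75 with it. Fezf2, a transcription factor of deep cortical neurons, was at -0.89 ± 0.48 and -1.39 ± 0.43, and Sdf2l1, a gene of the endoplasmic reticulum stress response, at -0.76 and -1.05.

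The gene lists were compared next, by counts and medians beside those of all tested genes, of which 5819 of 11372 had an interaction above 0 (51.2%) with a median of 0.01. Rapid activity-response genes had 18 of 20 above 0 and a median of 0.58, from -0.70 without history to -0.04 with it. None of them was in a lost, gained, reversed or kept class. In the replicate 1 libraries alone the median was 0.87 and in the replicate 2 libraries 0.02, and without HH replicate 1 it was -0.40. HH replicate 1 stood at 1.30 on the list's mean log2 level relative to the 8 libraries, HT replicate 1 at 0.21, and the other 6 between -0.37 and -0.07. Later activity-response genes had 23 of 31 above 0 and a median of 0.24, and without HH replicate 1 the median was -0.09. Pcsk1, Scg2 and the kinase gene Pim1 were lost falls, 3 of 31, against 0.923% of all tested genes. Pim1 had few counts, at a mean of 2.40 CPM. Its interaction of 0.72 ± 0.70 was 0.05 in the replicate 2 libraries and 0.33 without TH replicate 1. Nfil3, a repressor of this list, was at -0.86 ± 0.40 and then 0.18 ± 0.42, an interaction of 1.04 that was 0.24 without HH replicate 1. Sorcs3, a sorting receptor, had an interaction of 0.61 ± 0.28, and 0.22 without HH replicate 1. ERK pathway feedback genes had 12 of 14 above 0 and a median of 0.35, with Dusp1 and Etv1 as lost falls, and without HH replicate 1 the median was -0.48.

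HH replicate 1 was also the highest library for single activity genes. Fos, a transcription factor of the AP-1 family, stood at 37.0 and 5.74 CPM in HH, 11.6 and 6.46 CPM in HT, 9.67 and 6.88 CPM in TH and 11.0 and 9.36 CPM in TT. Npas4, a factor switched on by calcium entry, stood at 53.0 and 3.91 CPM in HH, and between 1.97 and 9.57 CPM in the other 6 libraries. Arc, a synaptic protein gene, stood at 41.6 and 7.04 CPM in HH and between 3.64 and 9.31 CPM elsewhere. Bdnf, a secreted neurotrophin, stood at 122 and 20.1 CPM in HH and between 10.9 and 36.0 CPM elsewhere. In each of these genes HH replicate 1 was the highest library and HH replicate 2 lay within the range of the other 6 libraries, or for Fos below it. The interactions were 1.503 ± 1.138 for Fos, 2.21 ± 2.07 for Npas4, 1.28 ± 1.28 for Arc, 1.57 ± 1.43 for Bdnf and 0.61 ± 0.59 for the scaffold gene Homer1. Without HH replicate 1 they turned to -0.36, -0.63, -0.48, -0.24 and -0.27. Egr2, a zinc finger factor, was at 1.03 ± 0.73, and 0.01 without that library, while Jun was at -0.36 ± 0.23, and -0.096 without HT replicate 2. For Nr4a1, a nuclear receptor named after its values were seen, the interaction was 1.75 ± 1.93, 2.68 without HH replicate 2, where it passed adjustment (edgeR adjusted p = 0.0177), and -1.26 without HH replicate 1. HH replicate 1 held 159 CPM of Nr4a1, against 9.97 to 26.6 CPM in the other 7.

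Lists of synaptic and channel genes had median interactions between -0.09 and 0.21, with single members further from 0. AMPA receptor subunits and partners had 10 of 18 above 0 and a median of 0.05, and none was in a class. Gria1 stood at 1892 and 2044 CPM in HH, 1535 and 1891 CPM in HT, 1731 and 2134 CPM in TH and 1817 and 1793 CPM in TT, with HT just below HH, TT within the range of TH and an interaction of 0.10 ± 0.25. Gria2 had an interaction of 0.32 ± 0.27 and Gria4 of 0.52 ± 0.33, which were 0.09 and 0.04 without HH replicate 1. NMDA, kainate and metabotropic glutamate receptors had a median of 0.19, with 13 of 17 above 0. It was 0.37 in the replicate 1 libraries, 0.0075 in the replicate 2 libraries and 0.016 without HH replicate 1. The kainate receptor gene Grik1 was at 0.44 ± 0.20, and at 0.27 without HH replicate 1. GABA receptors and inhibitory synapse genes had a median of 0.21, with 14 of 19 above 0. Theirs was 0.46 in the replicate 1 libraries and -0.11 in the replicate 2 libraries, and -0.056 without HH replicate 1, which stood apart at 0.41 on the mean log2 level of the list. Gabrd, an extrasynaptic receptor subunit, was a gained fall at 0.23 ± 0.41 and then -0.73 ± 0.43. Its interaction of -0.96 was -0.39 without HT replicate 1. Medians were 0.13 for sodium channels, 0.02 for calcium channels, 0.15 for potassium and HCN channels, 0.02 for presynaptic release genes and -0.09 for postsynaptic scaffold and signalling genes. Nptx2, a secreted pentraxin that gathers AMPA receptors, was at 0.51 ± 0.37, and 0.25 without HH replicate 1.

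Cholesterol synthesis and uptake genes lay below 0 in both histories, 23 of 23 without and 22 of 23 with, with medians of -0.55 and -0.45. Their median interaction was 0.15, with 16 of 23 above 0, and it was -0.04 in the replicate 1 libraries and 0.26 in the replicate 2 libraries. Pmvk, a kinase of the mevalonate pathway, had an interaction of 0.48 ± 0.32, from -0.47 ± 0.23 to 0.01 ± 0.22, and of 0.21 without TH replicate 1. Neuropeptides and secreted neurotrophic factors had a median of 0.06, with Vip and the growth factor gene Igf1 as lost falls, Igf1 at -0.86 ± 0.35 and then -0.18 ± 0.35. The Igf1 interaction of 0.68 was 0.10 without HH replicate 1. Retinoic acid genes had a median of 0.07, with the retinaldehyde reductase gene Dhrs3 as a lost fall (-0.70 and 0.01) and Cyp26b1, which degrades retinoic acid, as a gained fall (-0.24 and -0.82). The interaction of Dhrs3, 0.71, was 0.16 without TT replicate 2, and that of Cyp26b1, -0.58, was -0.13 without HT replicate 2. The medians were 0.04 for circadian clock genes, -0.03 for DNA methylation and demethylation genes, -0.02 for unfolded protein and integrated stress genes, 0.11 for cytosolic ribosomal protein genes and 0.08 for oxidative phosphorylation genes.

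Markers of the cell types a mixed culture holds were read in the same way, since in bulk RNA fewer cells of a type and less RNA per cell cannot be told apart. Oligodendrocyte lineage markers were higher after TTX in both histories, with 15 of 16 above 0 in each and medians of 0.58 and 0.54. Of all 11372 tested genes, 5667 lay below 0 without history and 5579 with it. The markers' interaction had a median of -0.09 and 7 of 16 above 0, and without TT replicate 2 the median was -0.54. That library stood at 0.77 on the list's mean log2 level, with the other 7 between -0.59 and 0.18. TT replicate 1 stood at 0.18 and the TH libraries at -0.15 and 0.06, so much of the rise with history lay in TT replicate 2. Cspg4 was the list's lost rise, and Enpp6, an enzyme of newly formed oligodendrocytes, was at 0.32 ± 0.21 and then 0.81 ± 0.19, an interaction of 0.49 that was 0.24 without TT replicate 2. Proliferating cell markers had medians of 0.73 and 0.48, and an interaction of -0.24 with 5 of 19 above 0. Mcm5, a helicase subunit, was a lost rise at 0.75 ± 0.31 and 0.12 ± 0.28, and Cdk1 and Rrm2, genes of the cell cycle, had interactions of -0.49 ± 0.32 and -0.68 ± 0.37. With 1 library left out these reached -0.22 for Cdk1 (HT replicate 2) and -0.35 for Rrm2 (HH replicate 2), and that of Mcm5 went from -0.63 to -0.34 (TT replicate 1). The median interaction was -0.21 for excitatory and 0.16 for inhibitory neuron markers, the latter with Gad2 and Vip as lost falls. Astrocyte markers stood at -0.02, the 6 tested microglia markers at 0.22 and the 6 tested endothelial, pericyte and fibroblast markers at 0.12. Cd68, of macrophages and microglia, was a reversed gene at -1.02 ± 0.50 and 0.41 ± 0.49. It stood at 1.99 and 5.78 CPM in TT, and its interaction of 1.43 was 0.43 without TT replicate 2. No marker in the table was at 0 in all libraries, but 8 of 14 microglia markers and 9 of 15 of the last list were too low to be tested. The part of cell makeup in any single gene's interaction was not tested.

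**Figure D4:**
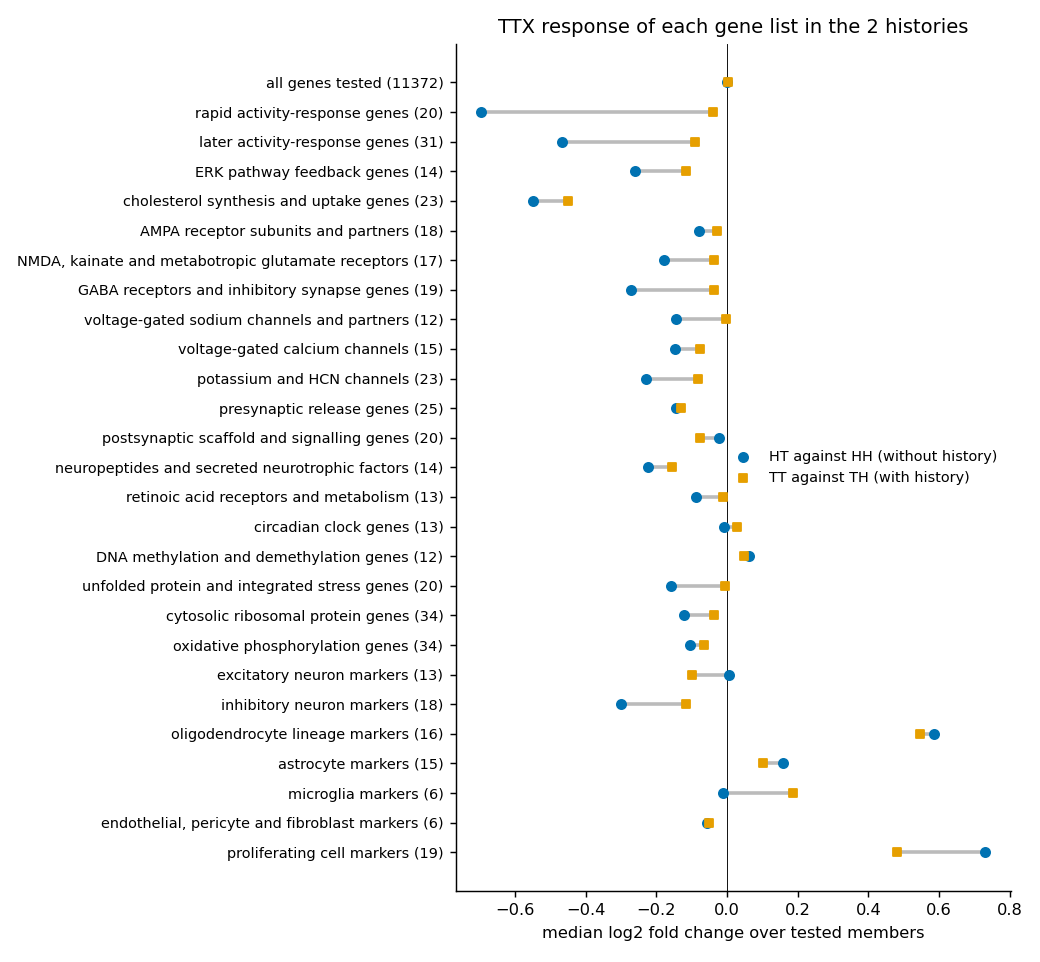
Median log2 fold change of each gene list (tested members in brackets) after TTX without history (circles) and with history (squares); the bar between them is the change with history. Rapid activity-response genes lie furthest apart, at -0.70 and -0.04. Most lists, this one included, have both medians on the same side of 0. The cholesterol, oligodendrocyte and proliferating cell lists lie furthest from 0 with history, at -0.45, 0.54 and 0.48.

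Class sizes depended on single libraries. Sorted by fold alone, which a lone library cannot make easier by having no overlap, 338 genes were lost by fold alone with all 8 libraries, 539 without HH replicate 1 and 1025 without HH replicate 2. Those gained by fold alone numbered 133 with all libraries, 262 without TH replicate 1 and 450 without TH replicate 2. A mean over fewer libraries varies more, so counts can grow by construction. Of the 253 lost genes, 142 to 198 remained lost with 1 library left out, the fewest without TH replicate 2. Of the 116 gained genes 53 to 96 remained, of the 108 reversed 73 to 84 and of the 52 kept 35 to 48. With the Y-linked gene as a covariate 214 genes were lost, 141 gained, 115 reversed and 87 kept.

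**Figure D5:**
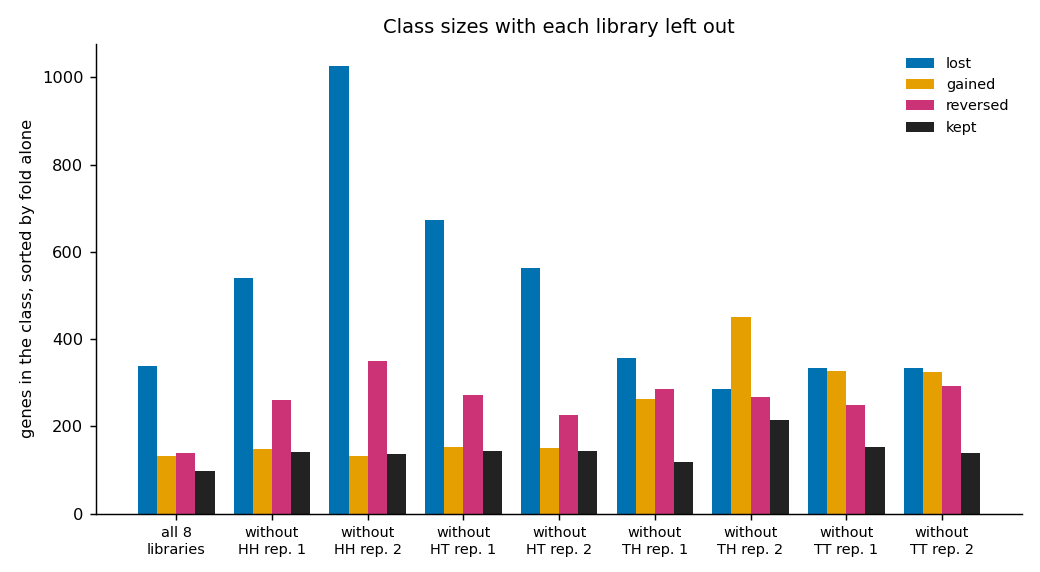
Number of genes in each class, sorted by fold alone, with all 8 libraries and with each library left out in turn. Genes lost by fold alone are most numerous without HH replicate 2, at 1025, and genes gained by fold alone without TH replicate 2, at 450.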

How the data were processed

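Nascent RNA of 8 libraries was analysed. The submitters' processing notes name Bowtie2, TopHat2, featureCounts and FastQC and rat build rn6, without versions or roles. Annotation, strand and intron settings are not given in the sources consulted. The authors deposited whole-number read counts per gene symbol, not normalized. Each column was tied to a sample through the leading number of its description, and 2 columns matched no sample and were left out. Overlapping and antisense genes may share reads, and counting that left out introns would lower genes with long introns.

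Counts (3489176 to 4959887 per library) were fitted in R 4.3.3 with edgeR 4.0.16: filterByExpr on the groups, trimmed mean of M values (TMM) scaling, means of the 4 groups with 4 residual degrees of freedom, robust quasi-likelihood tests of the interaction and of both responses, and Benjamini-Hochberg adjustment over 11372 genes at 0.05. SE is the size of the log2 change over the square root of F and rests on the spread of all groups. CPM use TMM library sizes; overlap and replicate values use log2 CPM with a prior count of 2. The edgeR step was tested on simulated data in which each gene had the same spread in all groups, so groups of unlike spread were not tested. Alternatives were DESeq2 1.42.0, limma 3.58.1 (voom), other scalings, filters and folds, a replicate block, left-out libraries and, added after seeing the data, classes by fold alone with libraries left out and presence of Eif2s3y (over 10 CPM) as a covariate. Whether shared replicate numbers pair the groups could not be told, save that TT replicate 2 lacks the Y-linked RNA of the other libraries numbered 2. Deviations of same-numbered libraries correlated at 0.45 between HH and HT and at -0.07 to 0.09 otherwise. The labels give no batch or date. Figures were drawn with matplotlib 3.10.9.

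The members, the 26 gene lists and the rules were chosen with earlier results of these data known. Named genes are the 10 of smallest interaction p in each direction, the 5 of smallest p per class and direction at a mean of at least 5 CPM, the 2 of smallest p per list, and 8 fixed genes (Gria1, Gria2, Fos, Arc, Npas4, Bdnf, Nptx2 and Homer1), as far as the text needs them. Named after their values were seen were Dusp1, Scg2, Pcsk1, Nr4a1, Gad2, Pole2, Eif2s3y, the kept genes, the genes at class limits, those with CRE letters, and the list members Pim1, Igf1, Gabrd, Cyp26b1 and Mcm5. Promoters came from RefSeq (GRCr8), matched by symbol for 80.8% of tested genes; classes and lists with under 80% matched were not described. A gene that the rules name is not reported here.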

Additional observations from a re-analysis of the deposited data

How the results depend on the processing

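The interaction called 0 genes under RLE and upper-quartile scaling, both other filters, DESeq2, limma-voom, the replicate block, the Y-linked covariate and with HH replicate 1 and HT replicate 1 both left out. With 1 library left out the interaction calls numbered 0 to 2: Nr4a1 and Htr2a without HH replicate 2, and Pole2, a polymerase subunit, without TH replicate 2. There the remaining library is assumed to vary like the other groups. Pole2 stood at 4.70 CPM in TH replicate 1 and between 766 and 1271 CPM in the other 7 libraries. For the interaction, unadjusted p under 0.05 was reached by 888 genes without HH replicate 2 and 302 without TH replicate 2. Under the replicate block 253 genes were lost, 116 gained, 111 reversed and 53 kept, and the block changed no call. TT replicate 2 lacks the Y-linked RNA of the other libraries numbered 2, so that number does not mark a culture shared by all groups. Beyond this, with 2 pairs it could not be told whether numbers mark shared cultures.

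A fold of 2 left 43 lost, 17 gained, 27 reversed and 7 kept genes. No filter on low counts gave 444, 345, 592 and 153. Group means of at least 10 counts gave 39 reversed and 32 kept, no rule on overlap gave 97 kept, and the Y-linked covariate 87 kept. With HH replicate 1 and HT replicate 1 both left out 592 were lost, 263 reversed and 116 kept. With 1 library left out counts ran from 200 to 1003 lost, 110 to 443 gained, 203 to 336 reversed and 84 to 153 kept; a lone library meets the rule on overlap more easily, so these rise in part by construction.

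List medians with 1 library left out ran from -0.40 to 1.25 for rapid activity-response genes (-0.039 with both left out), -0.087 to 0.61 for later activity-response genes, -0.48 to 0.88 for ERK pathway feedback genes, -0.090 to 0.28 for cholesterol synthesis and uptake genes, -0.54 to 0.14 for oligodendrocyte lineage markers and -0.42 to -0.14 for proliferating cell markers. Of all 208 list medians with 1 library left out, 47 moved by more than the spread between replicates.

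Named genes that changed sign with 1 library left out were Fos (-0.36 to 2.33), Npas4 (-0.63 to 3.77), Arc (-0.48 to 2.09; -0.18 with both left out), Bdnf (-0.24 to 2.58), Homer1 (-0.27 to 1.15; -0.091 with both left out), Nr4a1 (-1.26 to 2.68; -0.85 with both left out), Gria1 (-0.043 to 0.26) and Pole2 (-0.14 to 7.55). So did some kept genes, a class whose rule sets the direction of both responses and no limit on the interaction. These were Hmgcs1 (-0.090 to 0.25, and -0.057 with the Y-linked covariate), Stard4 (-0.82 to 0.033), Gpr17 (-0.65 to 0.13) and Cldn11 (-0.71 to 0.77, and 0.91 with both left out). Further ones were Cenpf (-0.45 to 0.031), Kif20a (-0.11 to 0.074), Sdf2l1 (-0.90 to 0.25) and Mki67 (-0.28 to 0.40, with -0.13 with both left out and -0.012 under upper-quartile scaling). The cause was not tested. With 2 libraries per group, the median SE of 0.28 limits what a single gene can show.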

Other observations

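The reversed genes differed between histories under the second vehicle as well as under the second TTX. Of the 52 with a fall without history and a rise with it, TH lay above HH in 2 and TT above HT in 51. Of the 56 with the opposite order, TH lay above HH in 54 and TT above HT in 3. These directions follow in large part from the rule, since all 4 groups enter it.

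Pole2, which encodes a subunit of a replicative DNA polymerase, stood at 4.70 CPM in TH replicate 1 and at 978 CPM in TH replicate 2, with 766 to 1271 CPM in the other 6 libraries. Its interaction was 0.85 ± 2.50.

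Counts of the Y-linked gene Eif2s3y place TT replicate 2 with the 4 libraries numbered 1. The labels give neither the sex of the pups nor the culture of origin.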
